A study of Arabidopsis thaliana with 87 samples.

Results

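Green and red parts of leaves were compared within pairs in Arabidopsis thaliana plants transgenic for RUBY, which encodes the enzymes of betalain synthesis and so colours tissue red where it is expressed. The 26 libraries were those whose titles name green parts (13 libraries) or red parts (13 libraries), out of 87 libraries in the series. All 26 had the genotype Col-0, a wild-type background, and carried 35S::RUBY, in which the strong 35S promoter of cauliflower mosaic virus drives the transgene. Leaves were 4 weeks old and came from plants kept at 22 °C under a cycle of 18 h light and 6 h dark. A green library was paired with the red library of the same transgenic event and the same label number, which gave 13 pairs from 8 events. An event is a single transformed line, so pairs of 1 event carry the same insertion. The events were MK016 with 3 pairs, MK040, MK041 and MK043 with 2 pairs each, and MK025, MK042, MK044 and MK045 with 1 pair each. The labels do not say whether parts with the same number came from the same leaf or plant, or how cleanly the parts were cut.

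Green tissue on a RUBY plant lacks visible betalain. Plants can silence such transgenes through small RNAs. RNA-dependent RNA polymerases copy the transgene transcript into double-stranded RNA, which DICER-LIKE enzymes cut to set lengths: DCL4 makes 21 nt and DCL2 makes 22 nt small RNAs, which direct cleavage of the transcript, whereas DCL3 makes 24 nt small RNAs, which direct DNA methylation. Cutting of double-stranded RNA leaves small RNAs from both strands, while fragments of a decaying transcript come from the transcript's own strand and have no set length.

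Small RNA from the whole transgene was measured at each length from 18 to 28 nt on each strand, in reads per 1000000 mapped reads (RPM). Mapped reads ranged from 3.50 to 31.4 M per library (M stands for 1000000 reads), and transgene reads ranged from 13136 to 1149403. Depending on the library, 3 reads were worth 0.0955 to 0.857 RPM. Such limits cover counting error only, because PCR copies could not be told from separate molecules. Which strand matches the RUBY transcript is not given in the sources used here, so strands are called plus and minus as deposited. The files hold reads on the transgene only, so neither the tissue nor the colour of the parts could be checked against marker genes. In such bulk samples, fewer cells with transgene small RNA and less small RNA per cell cannot be told apart.

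4 libraries stood apart from the others and had fewer than 8 M mapped reads. They were the red parts of MK016 number 5, MK025 number 1 and MK044 number 3, and the green parts of MK041 number 1. Their minus strand share of 21 nt reads was 51.3 to 54.7%, against 56.4 to 67.2% in the other 22 libraries. Their share of 24 nt reads was 1.09 to 1.30% against 1.57 to 2.87%, and that of 25 to 28 nt reads was 0.196 to 0.540% against 0.686 to 7.76%. In these 3 measures they did not overlap with the others, whatever their colour. The part that depth played in this was not tested, and results are given with all 13 pairs and again with the 9 pairs in which both libraries had at least 8 M. This limit left out MK016 number 5, the only pair with a higher total in red parts. Its red library had 7.98 M mapped reads, and the shallowest library above the limit had 10.6 M. Log2 differences of the total were -1.60, 0.33, 1.75 and 4.27 in the 4 pairs left out, against 1.92 to 4.83 in the 9 kept.

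Green parts held more transgene small RNA than red parts in 12 of 13 pairs. The total over all lengths and both strands was 5975 RPM in the lowest green library, 40111 RPM in the median one and 80855 RPM in the highest. In red parts the corresponding values were 1399, 3470 and 79188 RPM. The ranges overlapped, although 9 of 13 red libraries lay below every green library. Within pairs, the red total was 15.2% of the green total at the median, 3.52% at the lowest and 304% at the highest.

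In event MK016, pair number 3 had 48862 RPM in green parts and 3470 RPM in red parts, and number 4 had 51312 and 5581 RPM. Pair number 5 of the same event ran the other way, with 26078 RPM in green parts and 79188 RPM in red parts. It was the only pair with more in red parts, and its red library was one of the 4 shallow ones, with 7.98 M mapped reads. The colours of this pair were taken from the labels and could not be checked with the files. MK025 number 1 had 32464 RPM in green parts and 25783 RPM in red parts, the smallest difference among the other 12 pairs on the log2 scale, at 0.33. In MK040, number 1 had 80855 and 21388 RPM and number 2 had 60645 and 9602 RPM. Both colours of this event were high, and its number 1 held the highest green library of all.

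MK041 number 1 had 50788 RPM in green parts and 2624 RPM in red parts, and number 2 had 14846 and 1637 RPM. MK042 number 3 had 41294 and 1455 RPM, the widest gap. The red levels of these 3 pairs were all below the red median, while their green levels ranged widely. MK043 number 1 had 14953 and 2277 RPM, and number 2 had 5975 and 1399 RPM. MK044 number 3 had 7122 and 2118 RPM. Totals of these 3 pairs were low in both colours, as were those of MK041 number 2. MK045 number 3 had 40111 and 5247 RPM.

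**Figure D1:**
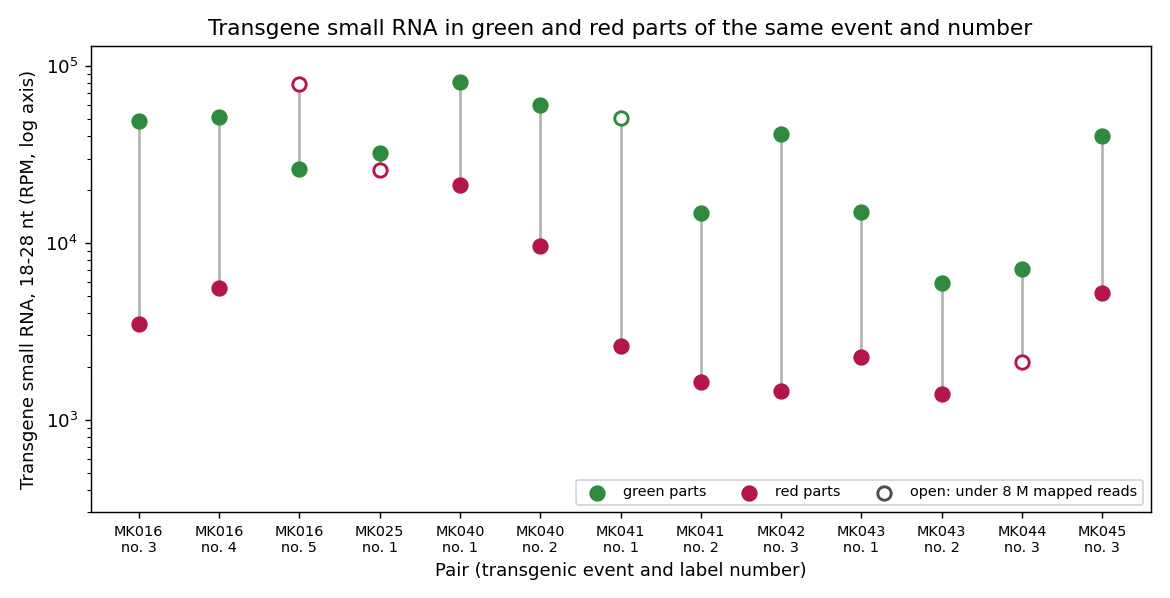
Total transgene small RNA of 18 to 28 nt in RPM on a log axis for the 13 pairs, with green parts and red parts joined by a line; open points are libraries under 8 M mapped reads. Green parts lie above red parts in 12 of 13 pairs, and MK016 number 5 is the exception.

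The mean within-pair difference of the total was 2.47 on the log2(RPM + 1) scale (SD 1.69, n = 13 pairs, 95% interval 1.44 to 3.43), a 5.54-fold excess in green parts (exact two-sided sign-flip permutation test, adjusted p = 0.00110). In the 9 pairs of at least 8 M, which leave out MK016 number 5, it was 3.04 (8.21-fold, 9 of 9 pairs, 95% interval 2.40 to 3.77, exact permutation, adjusted p = 0.00391, which is the smallest p that 9 pairs allow). With 1 mean per event the difference was 2.51 over 8 events (exact permutation, adjusted p = 0.00781). The plus strand differed by 2.34 (SD 1.79, 95% interval 1.24 to 3.37) and the minus strand by 2.56 (SD 1.61, 95% interval 1.57 to 3.48), each higher in green parts in 12 of 13 pairs (exact permutation, adjusted p = 0.00171 and 0.00110). P-values here weigh the mean difference against the spread between these pairs. Those over 13 pairs treat the pairs as independent, although pairs of 1 event share an insertion.

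How much of the variance of the gap between colours lay between events depended on 1 pair, but no test passed with or without it. Of the variance of the within-pair total among the 9 pairs of the 4 events with several pairs, 19.6% lay between events (exact permutation of event labels over 7560 arrangements, adjusted p = 0.834). For the green totals this share was 74.4% (adjusted p = 0.181) and for the red totals 56.0% (adjusted p = 0.290), so that none of these 3 tests passed. Without MK016 number 5 the shares were 72.4% for the within-pair total (exact permutation, adjusted p = 0.152), 79.2% for the green totals (adjusted p = 0.0714) and 89.1% for the red totals (adjusted p = 0.0571). With ranks in place of log2 values and all 9 pairs, the within-pair share was 38.1% (exact permutation, adjusted p = 0.463). Green and red totals of a pair had a Pearson r of 0.44 over 13 pairs (permutation, adjusted p = 0.348) and a Spearman rho of 0.52 (adjusted p = 0.186), and r was 0.71 without the 2 pairs farthest from the median red total, MK016 number 5 and MK025 number 1. Over event means r was 0.55 (n = 8 events, exact permutation, adjusted p = 0.348), and these values come from a family of 8 relations.

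The 21 nt class, the length of DCL4 products, made up most of the transgene small RNA of both colours. On the plus strand it was 1757 RPM in the lowest green library, 11438 RPM in the median one and 25890 RPM in the highest, against 351, 921 and 29324 RPM in red parts. On the minus strand green parts had 2874, 18460 and 36963 RPM and red parts had 552, 1596 and 32768 RPM. The highest red value on both strands belonged to MK016 number 5, and the ranges overlapped. The mean within-pair difference was 2.54 on the plus strand (SD 1.97, 95% interval 1.33 to 3.68, higher in green in 11 of 13 pairs) and 2.57 on the minus strand (SD 1.65, 95% interval 1.56 to 3.51, 12 of 13 pairs). Both rose in green parts (exact permutation, adjusted p = 0.00253 and 0.00146), and in the 9 deeper pairs the differences were 3.22 and 3.15.

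The 22 nt class, the length of DCL2 products, had a median of 1896 RPM on the plus strand and 2149 RPM on the minus strand in green parts, against 180 and 180 RPM in red parts. It rose in green parts by 2.38 on the plus strand and 2.49 on the minus strand, in 12 of 13 pairs each (exact permutation, adjusted p = 0.00201 and 0.00165). In the 9 deeper pairs the differences were 2.97 and 3.12. The ratio of 22 to 21 nt on the minus strand did not pass a test between colours with either choice of pairs.

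The 24 nt class, the length of DCL3 products, had the widest gap between colours on the minus strand. There the lowest, median and highest green libraries had 61.9, 346 and 953 RPM, and the red ones 8.74, 24.7 and 547 RPM. The within-pair difference was 2.88 (SD 1.58, 95% interval 1.91 to 3.78, 12 of 13 pairs, exact permutation, adjusted p = 0.00119), a 7.36-fold excess. In the 9 deeper pairs it was 3.43. On the plus strand green parts had 47.8, 258 and 832 RPM and red parts 12.1, 41.9 and 484 RPM, a difference of 2.03 (12 of 13 pairs, exact permutation, adjusted p = 0.00192). The 24 nt reads thus differed more on the minus strand than on the plus strand, which the strand shares at the same length test directly.

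Over all 22 combinations of length and strand, 19 were higher in green parts at an adjusted p under 0.05, which is 86.4% of those tested, and 0 were lower. The same number passed in the 9 deeper pairs. The 11 minus strand classes all rose, by 2.35 to 2.88, an excess of 5.09-fold to 7.36-fold, with little difference between lengths. On the plus strand the mean differences were 1.43 at 18 nt, 1.87 at 19 nt, 2.00 at 20 nt and 1.67 at 23 nt, all past the threshold. At 25 nt the plus strand differed by 0.91 (95% interval 0.25 to 1.56, 10 of 13 pairs, exact permutation, adjusted p = 0.0144), and without event MK040 this was 0.68 with an adjusted p of 0.0577.

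**Figure D2:**
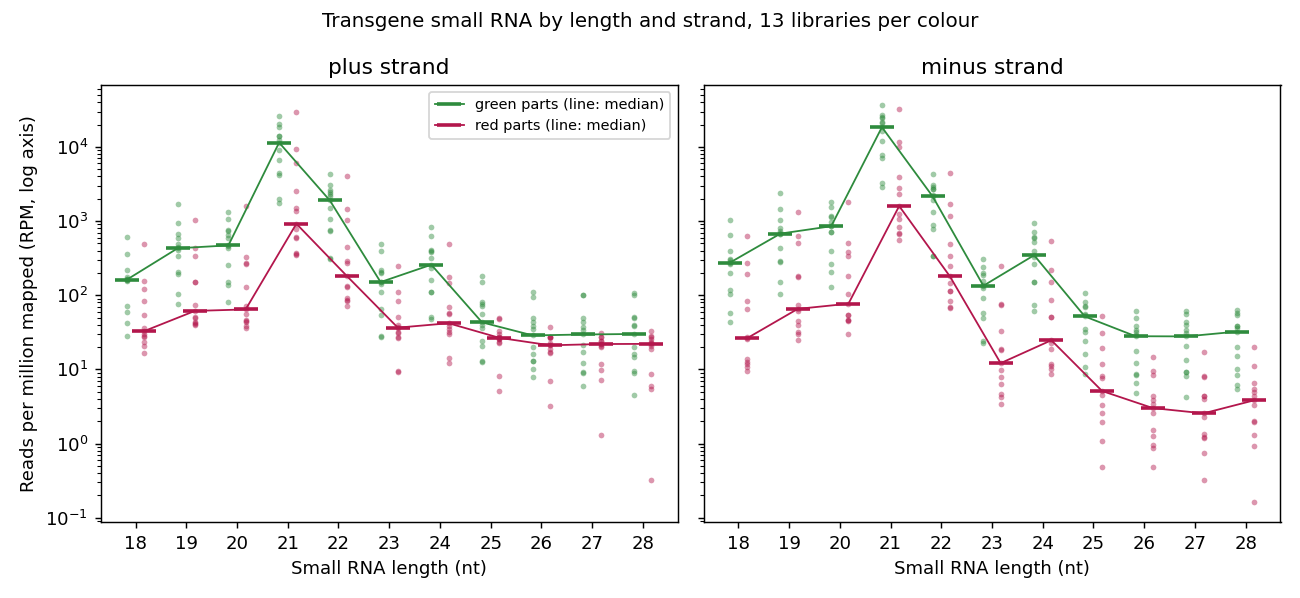
RPM on a log axis against length for the plus strand (left) and the minus strand (right), with 1 point per library and lines through the medians of 13 green and 13 red libraries. Both colours peak at 21 nt, and from 25 to 28 nt the medians lie close together on the plus strand and far apart on the minus strand.

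The longest plus strand classes, at 26, 27 and 28 nt, were the ones that did not pass. At 26 nt green parts had 7.85, 28.7 and 110 RPM at the lowest, median and highest library and red parts had 3.22, 21.1 and 37.1 RPM. The differences at 26, 27 and 28 nt were 0.53, 0.65 and 0.84 (95% intervals -0.15 to 1.23, -0.17 to 1.49 and -0.13 to 1.81), higher in green parts in 9 of 13 pairs each (exact permutation, adjusted p = 0.117, 0.114 and 0.0894). The 4 pairs in which red parts were higher were the same at the 3 lengths, namely both pairs of MK041 and both of MK043. The green library of MK041 number 1 was one of the 4 shallow ones, with 16 plus strand reads at 28 nt. At 26 nt, MK041 number 2 had 13.2 RPM in green parts and 26.5 RPM in red parts, and MK043 number 2 had 10.2 and 27.6 RPM.

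These classes depended on the pairs and on the test. Without event MK041 the differences were 0.81, 1.04 and 1.26 (exact permutation, adjusted p = 0.0273, 0.0133 and 0.0133), and without event MK043 they were 0.78, 0.91 and 1.16 (adjusted p = 0.0344, 0.0498 and 0.0358), so that each passed. These 2 events held the pairs in which red parts were higher. Of 21 fits that left out a pair or an event, only 3, 3 and 4 passed at 26, 27 and 28 nt. On counts, edgeR's quasi-likelihood test with pairs as a block called the 28 nt plus strand class (adjusted p = 0.0178), and DESeq2 called 27 and 28 nt (adjusted p = 0.0345 and 0.0228). In the 9 deeper pairs the differences were 0.63, 0.64 and 0.74, and none of them passed the permutation test.

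The same lengths on the minus strand gave another picture. At 28 nt the green libraries had 5.43, 32.3 and 62.6 RPM at the lowest, median and highest, and the red ones 0.161, 3.83 and 19.9 RPM. The lowest red value, in MK044 number 3, lay below the 0.484 RPM that 3 reads were worth in that library. Differences at 26, 27 and 28 nt were 2.35, 2.47 and 2.36, and green parts were higher in 13 of 13 pairs at each length (exact permutation, adjusted p = 0.00119). In MK016 number 5, where red parts had the higher total, 28 nt minus strand reads were at 20.1 RPM in green parts and 5.01 RPM in red parts. The plus strand of this pair went the same way at 28 nt, with 19.9 and 5.89 RPM. Its red library was one of the 4 shallow ones and had 40 minus strand reads at 28 nt. Summed over 25 to 28 nt, green and red medians were 131 and 88.4 RPM on the plus strand and 143 and 14.5 RPM on the minus strand.

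**Figure D3:**
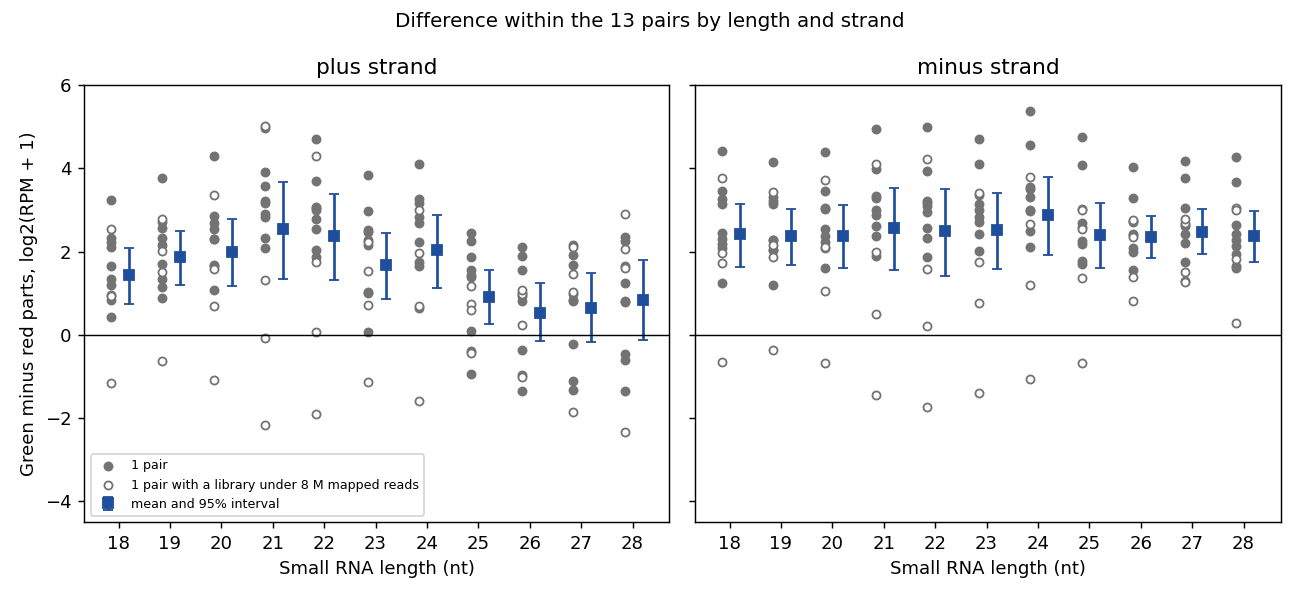
Green minus red parts on the log2(RPM + 1) scale for each pair (grey points, open where a library had under 8 M mapped reads), with the mean and 95% interval in blue, against length on the plus strand (left) and the minus strand (right). Minus strand means stay between 2.35 and 2.88, whereas plus strand means peak at 21 nt with 2.54 and fall to 0.53 at 26 nt.

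The minus strand's share of reads was therefore examined at each length. Over all lengths it was 52.0, 60.8 and 64.5% in the lowest, median and highest green library and 50.2, 57.6 and 61.7% in red parts. The mean within-pair difference of 3.54 percentage points (SD 5.68, 95% interval 0.05 to 7.00, 9 of 13 pairs) did not pass after adjustment (exact permutation, adjusted p = 0.0565). In the 9 deeper pairs the difference was 2.86 points, in 6 of 9 pairs, and did not pass (exact permutation, adjusted p = 0.107). It passed in 5 of 21 fits that left out a pair or an event, and adjusted p reached 0.216 in the others (exact permutation). The 5 fits left out MK040 number 1 (4.05 points, adjusted p = 0.0404), MK040 number 2 (4.15 points, 0.0311), MK041 number 1 (4.47 points, 0.0146), event MK040 or event MK041. At 21 nt the means were 61.7% in green parts and 61.2% in red parts, a difference of 0.51 percentage points (95% interval -4.06 to 4.86, exact permutation, adjusted p = 0.791). At 22 nt they were 52.6 and 50.7% (exact permutation, adjusted p = 0.109), and without event MK040 the difference of 2.80 points passed (adjusted p = 0.0213). Over all pairs, neither of the most abundant lengths thus showed a shift between strands past the threshold.

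At the 9 other lengths the minus strand share was higher in green parts, so that 9 of 12 tests passed, or 75%, all in that direction. The same number passed in the 9 deeper pairs. At 18 nt, minus strand reads were 62.1% in green parts and 45.2% in red parts, a difference of 16.9 percentage points in 13 of 13 pairs (95% interval 10.9 to 22.9, exact permutation, adjusted p = 0.000977). At 24 nt they were 57.6 and 42.8% (difference 14.7 percentage points, 11 of 13 pairs, exact permutation, adjusted p = 0.00234), and at 23 nt 45.3 and 31.6%.

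The largest shifts were at 25 to 28 nt. At 26 nt the minus strand share was 31.9, 43.0 and 50.5% in the lowest, median and highest green library and 3.32, 13.0 and 36.2% in red parts. Green parts were higher in 13 of 13 pairs, with a mean difference of 26.4 percentage points (95% interval 19.5 to 33.0, exact permutation, adjusted p = 0.000977). The differences were 23.4 percentage points at 25 nt, 27.6 at 27 nt and 24.7 at 28 nt, the last over the 12 pairs in which both libraries had at least 10 reads at that length. Red parts were thus mostly plus strand at these lengths, while the mean minus strand share of green parts was 41.7% at 26 nt and 45.3 to 46.1% at 25, 27 and 28 nt.

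**Figure D4:**
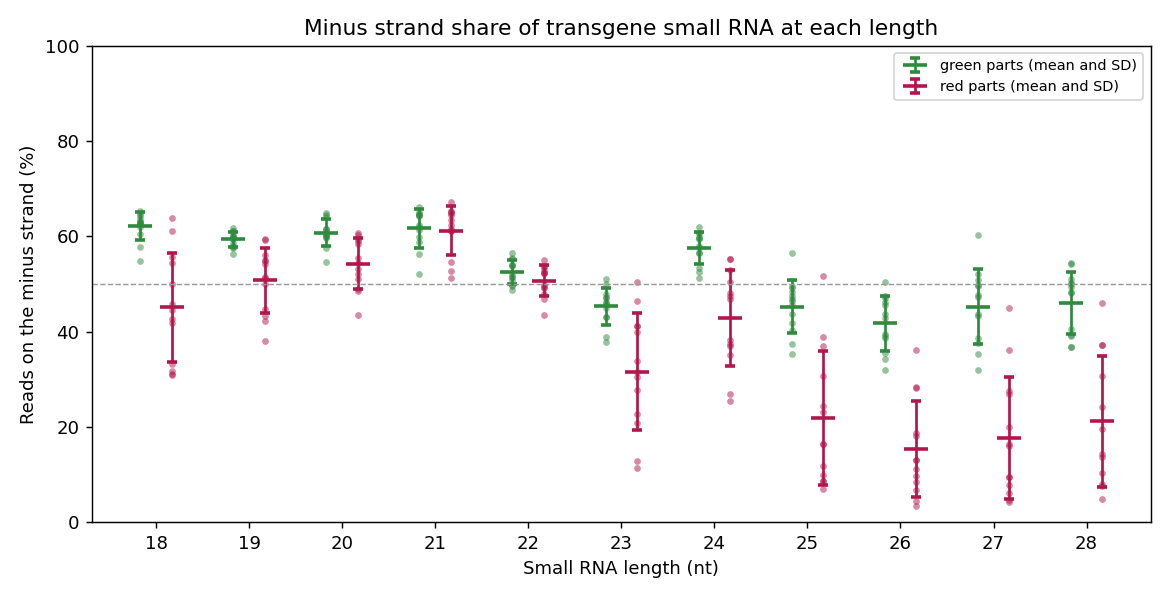
Percentage of reads on the minus strand at each length, 1 point per library, with the mean and SD of green and red parts; the dashed line marks equal strands. Green and red parts lie together at 21 nt (61.7 and 61.2%) and apart at 26 nt (41.7 and 15.4%).

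The length make-up of both colours was dominated by 21 nt. Its share of all 18 to 28 nt reads was 71.1, 77.7 and 82.5% in the lowest, median and highest green library and 64.6, 72.5 and 81.4% in red parts. Within pairs it was higher in green parts by 4.67 percentage points (SD 6.12, 95% interval 0.91 to 8.38, 10 of 13 pairs, exact permutation, adjusted p = 0.0372). The 18 nt share fell by 0.54 percentage points in green parts, and the shares at 25, 26, 27 and 28 nt fell by 0.50, 0.52, 0.48 and 0.48. These 6 calls were 54.5% of the 11 lengths tested, with 1 higher (9.09%) and 5 lower (45.5%). At 22 nt the share averaged 10.3% in green parts against 10.5% in red parts (exact permutation, adjusted p = 0.353), and at 24 nt it averaged 1.85 against 1.90% (adjusted p = 0.765).

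These small shifts of share depended on single pairs, and between 0 and 9 of the 11 shares passed when 1 pair or event was left out. The 21 nt share lost its call without any one of 8 pairs, namely MK016 number 3 or 4, MK041 number 1 or 2, MK042 number 3, MK043 number 1 or 2, or MK045 number 3, with differences of 3.98 to 4.80 percentage points and adjusted p-values of up to 0.0734. Without event MK041 the difference was 3.42 points (exact permutation, adjusted p = 0.145). In the 9 deeper pairs the 21 nt share was higher in green parts in 9 of 9 pairs, by 6.99 percentage points (95% interval 4.21 to 9.91, exact permutation, adjusted p = 0.00537), and 9 of 11 shares, or 81.8%, passed, with 1 higher (9.09%) and 8 lower (72.7%). Within the plus strand alone, 21 nt reads were 74.4% in green parts and 65.4% in red parts over 13 pairs (exact permutation, adjusted p = 0.0358). Within the minus strand the 21 nt shares were 79.1 and 78.1% (adjusted p = 0.503). In the 9 deeper pairs the 21 nt shares passed on both strands, each higher in green parts in 9 of 9 pairs. They were 74.7 and 61.8% within the plus strand (exact permutation, adjusted p = 0.00537). Within the minus strand they were 79.7 and 77.7% (adjusted p = 0.0143).

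Within the minus strand 24 nt reads took a larger share in green parts, 1.76% against 1.36%, in 12 of 13 pairs (exact permutation, adjusted p = 0.00806). In the 9 deeper pairs they took 1.85% in green and 1.43% in red parts, higher in green in 9 of 9 pairs (exact permutation, adjusted p = 0.0143). As a ratio to 21 nt reads of the same strand, 24 nt reads were higher in green parts by 0.31 on the log2 scale (95% interval 0.14 to 0.47, 12 of 13 pairs, exact permutation, adjusted p = 0.0342), the only call among 10 ratios, or 10%. The call was lost in 14 of 21 fits that left out a pair or an event, namely MK016 number 3 or 4, MK040 number 1 or 2, MK041 number 2, MK042 number 3, MK044 number 3, MK045 number 3, or any event other than MK025 and MK041. Over the 21 fits the ratio stayed between 0.27 and 0.37 and adjusted p reached 0.0977. It turned to -0.05 with a pseudocount of 10 RPM.

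Relative to 21 nt, other lengths were scarcer on the plus strand of green parts when only the 9 deeper pairs were used. There 8 of 10 ratios passed, or 80%, with 1 higher (10%) and 7 lower (70%). On the plus strand the log2 ratio to 21 nt was lower in green parts by 2.41 for 25 to 28 nt (95% interval 1.33 to 3.43), by 1.18 for 23 nt, by 1.07 for 18 to 20 nt, by 0.74 for 24 nt and by 0.25 for 22 nt. On the minus strand it was lower by 0.43 for 18 to 20 nt and by 0.23 for 25 to 28 nt, and higher by 0.28 for 24 nt. Over all 13 pairs the plus strand ratio of 25 to 28 nt differed by -1.78 (95% interval -3.19 to -0.35, exact permutation, adjusted p = 0.0818) and did not pass.

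Fully green and fully red leaves of the same event and number were available for 9 of the 13 pairs, from 6 events, which shows where the parts lie between whole leaves of 1 colour. In 7 of these 9 sets the totals were ordered fully red, red parts, green parts, fully green. Red parts exceeded fully red leaves in 9 of 9 sets, and green parts lay below fully green leaves in 8 of 9. In MK043 number 1 the 4 totals were 588, 2277, 14953 and 35818 RPM in that order. In MK042 number 3 red parts, at 1455 RPM, were close to fully red leaves at 1154 RPM, and green parts, at 41294 RPM, exceeded fully green leaves at 33228 RPM. In MK016 number 5 red parts held 79188 RPM and fully red leaves 2989 RPM. Red parts thus lay closest to fully red leaves in MK042 number 3 and farthest from them in MK016 number 5. Green parts lay closest to fully green leaves in MK040 number 2, with 60645 against 65028 RPM.

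**Figure D5:**
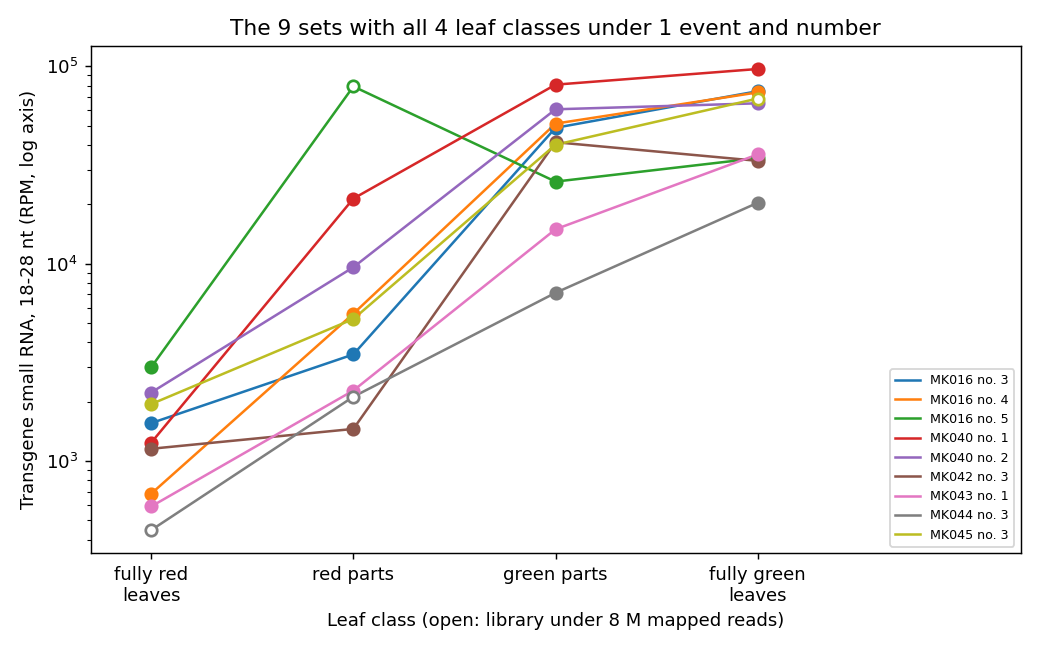
Total transgene small RNA in RPM on a log axis in fully red leaves, red parts, green parts and fully green leaves for the 9 sets, with 1 line per set and open points for libraries under 8 M mapped reads. Totals rise from left to right in 7 of 9 sets, and red parts exceed fully red leaves in all 9.

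The gap between colours was narrower in parts than in whole leaves. It was 2.47 on the log2(RPM + 1) scale in parts and 5.38 in whole leaves, a difference of -2.91 (SD 1.54, 95% interval -4.12 to -1.78, 9 of 9 sets, exact permutation, adjusted p = 0.0122). The 21 nt gap differed by -3.32 on the plus strand and -3.56 on the minus strand, and the 24 nt gap by -1.53 and -3.00. The plus strand values at 20, 23 and 24 nt each lost their call without any one of 6 of the 9 sets. Their adjusted p-values then reached 0.0543, 0.0617 and 0.0684 (exact permutation). Of 25 levels, 20 passed (80%), and the exceptions were 18, 25, 26, 27 and 28 nt on the plus strand. These 9 sets came from 6 events, and with 1 mean per event the total differed by -2.66 (exact permutation, adjusted p = 0.0977) and 0 of 25 passed. In the 6 sets of at least 8 M in all libraries the total differed by -2.52 in 6 of 6 sets (exact permutation, adjusted p = 0.0977), and 0 of 25 passed, with 0.03125 the smallest unadjusted p that 6 sets allow.

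The make-up of small RNA also differed less between parts than between whole leaves. Green parts exceeded red parts by 3.18 percentage points in the share of 21 nt reads, and fully green leaves exceeded fully red ones by 22.2 points, a difference of -19.0 points (exact permutation, adjusted p = 0.00749). Of 23 shares, 22 passed (95.7%). The exception was the minus strand share at 21 nt, with a difference of -3.64 points (exact permutation, adjusted p = 0.480). In the 6 deeper sets 15 of 23 shares passed. The fully red library of MK044 number 3 was the shallowest of these sets, at 0.905 M mapped reads, and had a 21 nt share of 19.1%. Leaving out any one set kept the difference of the 21 nt share between -21.1 and -13.7 points, past the threshold each time.

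Depth moved with the colour difference. The within-pair difference of log2 mapped reads had a Pearson r of -0.78 with that of the total over 13 pairs (permutation, adjusted p = 0.0128) and a Spearman rho of -0.79 (adjusted p = 0.00893), so that pairs with deeper green libraries showed smaller excesses of green. Without the 2 pairs farthest from the median depth difference r was -0.88, and over 8 event means it was -0.82 (exact permutation, adjusted p = 0.0513). In the 9 deeper pairs r was -0.55 (exact permutation, adjusted p = 0.256), which did not pass. Mapped reads are also the denominator of RPM, so the measures share a term, and the part of depth in the totals was not tested. The labels give no sequencing batch or date by which the pairs could be divided.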

How the data were processed

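The authors extracted RNA with TRIzol and made size-enriched libraries with the TruSeq Small RNA kit, per the labels' protocols. The submitters' processing notes name the TAIR10 build. Which aligner, trimming and read filters were used is not given in the sources used here. Per length and strand, the deposited files hold raw read counts over the whole transgene, and the authors' RPM values, which equalled count divided by mapped reads and multiplied by 1000000 within a relative tolerance of 1e-06. All 22 combinations of length and strand were listed in each of the 26 files. The RUBY sequence was not used here.

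From these RPM values, log2(RPM + 1) differences, shares of reads and log2 ratios were taken within pairs and tested with exact two-sided sign-flip permutation tests. Benjamini-Hochberg adjustment ran within each family of 3 levels, 22 classes, 11 length shares, 12 minus strand shares, 10 ratios, 25 and 23 comparisons with whole leaves, 3 event tests and 8 relations, and adjusted p under 0.05 was called. Intervals hold the shifts not rejected by the same test at 95% confidence. The smallest p for 13 pairs is 0.000244141. A strand share needed 10 reads in both libraries. Relations over pairs used 100000 resamples, or exact permutation below 10 points. Tools were Python 3.11.15, numpy 2.4.6, pandas 2.3.3, scipy 1.17.1, matplotlib 3.10.9, R 4.3.3, edgeR 4.0.16 and DESeq2 1.42.0, the last pair on the deposited counts with mapped reads as library size. The test was tested on simulated data of 13 independent pairs, which did not cover pairs that share an event.

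The pairing rests on the shared event, which is the same transgenic line, in the titles. After subtraction of group means, the length and strand profiles of the libraries of a pair correlated above 0.1 in 7 of 13 pairs (-0.76 to 0.88), and in 1 pair the own partner correlated best. The profiles thus did not single out the library of the same number, and the pairing was kept from the titles alone. No pair of libraries within a colour agreed within sampling noise (0 of 156 by a chi-squared test). Named features were the total, the strands, the 22 classes, shares at 21, 22 and 24 nt or past the threshold, and every pair. Members, lists and tests were chosen with earlier results of these data known.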

Additional observations from a re-analysis of the deposited data

Results flagged for a closer look

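The difference between colours differed between parts and whole leaves over 9 sets, by exact sign-flip permutation of the difference of differences. For the total this was -2.91 on the log2(RPM + 1) scale, for the plus strand -2.60 and for the minus strand -3.48. At 21, 22 and 24 nt it was -3.32, -2.75 and -1.53 on the plus strand and -3.56, -3.40 and -3.00 on the minus strand. For the shares it was -19.0 percentage points at 21 nt, -0.69 at 22 nt, 2.46 at 24 nt and -12.4 for the minus strand. The minus strand share lost its call without any one of 5 sets (MK016 number 3 or 4, MK042 number 3, MK043 number 1 or MK044 number 3), with adjusted p = 0.0653 by exact permutation each time, and was -8.34 without MK044 number 3. The 22 nt share had an adjusted p of 0.0938 in the 6 deeper sets and 0.0685 with 1 mean per event (exact permutation). Adjusted p-values of these 13 values lay between 0.00749 and 0.0342, and what set parts and whole leaves apart was not tested.

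Among 14 groups of 8 or 9 values checked for a single value far from the rest, 3 were flagged by Dixon's criterion, where chance flags about 1 in 20 groups. The fully green leaves of MK040 number 2 had a 21 nt share of 72.7%, against 77.5% in the nearest of the other 8 libraries. Green parts and red parts of the same number, at 71.1 and 67.6%, were also the lowest of the 9 sets, but were not flagged. Its fully red leaves, at 67.1%, were not low among the fully red ones. The fully red leaves of MK044 number 3 had a 21 nt share of 19.1% and a minus strand share of 5.94%, in a library of 0.905 M mapped reads.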

How the results depend on the processing

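The total, both strands and the 19 class calls kept their direction under every alternative run on them, and leaving out 1 pair or event kept the total between 2.24 and 2.81, the plus strand between 2.09 and 2.70, the minus strand between 2.35 and 2.88, and the classes called between 18 and 22. The same cases gave 0 to 9 length shares, 9 to 11 minus strand shares and 0 to 4 ratios, and leaving out 1 set gave 17 to 21 levels and 19 to 22 shares for parts against whole leaves. Ratios called numbered 6 with a pseudocount of 10 RPM, 8 without pairs under 8 M, 7 without MK016 number 5 and MK025 number 1, and 0 with 1 mean per event. Length shares called were 0 with 1 mean per event, 3 as shares of 21 to 24 nt reads and 1 within the minus strand. For parts against whole leaves, 0 of 25 levels passed with 1 mean per event and 0 without sets under 8 M. The relation of depth with the total had r of -0.55 without pairs under 8 M and -0.69 without MK016 number 5 and MK025 number 1.

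Among values past the threshold before or after the change, those that reversed were the 24 to 21 nt ratio of the minus strand, at -0.054 with a pseudocount of 10 RPM, and its 25 to 28 nt ratio, at -0.23 without pairs under 8 M. Within the minus strand the share differences turned to 0.403 at 24 nt, 0.00755 at 25 nt, 0.0113 at 26 nt and 0.0224 at 27 nt. Uncalled differences also changed sign, to 0.0337 at 23 nt within the minus strand and 0.329 at 22 nt within the plus strand. The causes were not tested. Without the pairing as a replicate block, the total had an adjusted p of 0.000975 (permutation), 19 classes, 6 length shares, 10 minus strand shares and 4 ratios passed, the overall minus strand share passed (0.0267) and the 18 nt share did not (0.0877). edgeR without the block called 17 classes. For single features under the alternatives that left out no single pair, event or set, 66 values fell short of a threshold they had passed, 35 newly passed and 6 reversed. Counting error was large for 25 to 28 nt in red parts of MK044 number 3, which had 62 plus strand reads over these lengths. On the minus strand this library had only 1.45 RPM over the same lengths.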
